A study of Homo sapiens with 12 samples.

Results

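Collagen genes were followed in RNA-Seq data of 201B7, an established human iPSC line made from skin cells, after culture in 4 conditions. Their members were chosen by name, as every gene whose symbol is COL, a number, A and a number, which gave 44 of the 60617 genes of the expression table. The name rule uses no measured value, but it was set with earlier results of these data known. Cond 1 was the control, kept in StemFit medium on a laminin fragment (iMatrix511). In Cond 2, labelled low nutrient, StemFit had been heated at 56 °C for 30 min before use. In Cond 3, labelled differentiation, the cells received DMEM with 10% FBS, non-essential amino acids and GlutaMax. In Cond 4, labelled physical stimulation, cells were pipetted 20 times as they were passaged and were otherwise treated like the control. All 4 conditions used the same line, received no further treatment named in the labels and were harvested on Day 5. By the paper's account, the heated medium was given earlier in culture than the FBS medium. Each condition had 3 libraries, 12 in all. The design text describes 1 well per condition on each of 3 plates, and the paper describes both a triplicate arrangement and technical replicates, so p-values here measure the spread between these libraries of 1 line.

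Collagens are the main structural proteins of the extracellular matrix. Each is wound from alpha chains, some from copies of 1 chain and others from chains of different genes, so that type I collagen needs both COL1A1 and COL1A2 in its usual form. Fibrillar collagens form the fibres of connective tissue, type IV collagen forms the sheet of basement membranes, type VI collagen forms beaded filaments beside it, and the FACIT group attaches to fibres without forming them. Pluripotent cells sit on a laminin-rich matrix and make basement membrane components of their own, while fibrillar collagen is best known from mesenchymal cells such as fibroblasts, osteoblasts and chondrocytes.

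The 44 genes were sorted by protein structure into 11 fibrillar genes, 6 of type IV, 3 of the basement membrane zone, 10 FACIT genes, 3 of short-chain networks, 5 of type VI, 4 transmembrane genes and 2 left unclassed. The level of a gene is given as TPM, that is, reads per unit of gene length, brought to a common total for all libraries. A value after ± is the SD over the 3 libraries of a condition (SD, n = 3). A fold change is given as log2 of the ratio of TMM-normalized counts with its standard error, from the quasi-likelihood test of edgeR fitted to all 12 libraries together, with p-values adjusted over all genes tested by the Benjamini-Hochberg method. A gene was said to rise or fall where the adjusted p was under 0.05, and it was a DEG where its fold change also exceeded 2. Library totals lay between 16441148 and 21871503 counts. Of the 44 genes, 41 had a row in the count table, and 38 of these passed the filter on low counts. COL18A1, COL6A1 and COL6A2, all on chromosome 21, had TPM values but no count row. Their reads were recovered from TPM, and their fold changes come from a second fit that includes such genes.

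A mean of at least 1 TPM was reached by 30 collagen genes in Cond 1, 30 in Cond 2, 31 in Cond 3 and 30 in Cond 4, and 12 stayed under 1 TPM in every condition. The most abundant over the 12 libraries was COL18A1 (mean 292 TPM), the core protein gene of a basement membrane proteoglycan, followed by COL1A1 (269 TPM), COL26A1 (219.7 TPM), COL6A1 (139.9 TPM) and COL9A3 (135 TPM). COL3A1, the partner of type I collagen in many soft tissues, stayed between 0.0310 and 0.814 TPM. COL22A1 had 0 reads in all libraries, COL11A2 at most 1 read and COL19A1 at most 7. These were the genes with a count row that did not pass the filter. Whether reads of COL11A2 were lost in mapping or counting was not tested. COL10A1, COL8A1, COL20A1 and COL6A6 passed the filter but stayed under 1 TPM on average in each condition and did not pass the test in any comparison.

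The labelled cell type was checked by its markers. The pluripotency list used here did not include POU5F1, the gene of OCT4, so the counts and sums below do not cover it. By the paper's account, POU5F1 expression was lower than the control in the low nutrient condition and unchanged in the FBS condition. All 9 pluripotency markers had at least 1 TPM in each condition, and their summed TPM lay between 7939 and 8232 in Cond 1, 6954 and 7996 in Cond 2, 8253 and 8974 in Cond 3, and 7775 and 8254 in Cond 4. Within that sum the markers moved in both directions. In Cond 2, 3 of 9 rose and 4 fell, and in Cond 3, 5 rose and 3 fell, where 20.9% and 38.4% of all genes passed the same test. NANOG, a core pluripotency factor, stood at 45.9 ± 1.93 TPM in Cond 1, and it fell to 22.9 ± 2.37 TPM in Cond 2 (log2 fold change -1.09, standard error 0.08, adjusted p = 6.43e-10) and to 10.5 ± 0.759 TPM in Cond 3 (log2 fold change -2.16, standard error 0.085, adjusted p = 1.4e-14). TDGF1, a Nodal co-receptor, fell from 1299 ± 73.0 to 490.1 ± 136 TPM in Cond 2 (log2 fold change -1.5, standard error 0.11, adjusted p = 4.34e-10) and to 689 ± 9.53 TPM in Cond 3 (log2 fold change -0.94, standard error 0.11, adjusted p = 2.58e-07). Of 11 fibroblast markers, DCN, LUM, PRRX1 and FAP were at or near 0 in every condition, with condition means between 0 and 0.0529 TPM. POSTN, S100A4 and PDGFRA of the same list rose in Cond 3 and THY1 fell, with the values given after the collagen results. Bulk RNA cannot separate a change in RNA per cell from a change in the share of cells that make it.

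In Cond 3 most fibrillar genes rose and most type IV genes fell. Against Cond 1, 12 of 38 collagen genes tested (31.6%) were DEGs, 8 higher and 4 lower. Of all 17747 genes tested 8.16% were DEGs, 4.85% higher and 3.31% lower. By adjusted p alone, 16 collagen genes rose and 13 fell, whereas among all genes 38.4% passed, 19.5% upward and 18.8% downward. The median log2 fold change of the 38 genes was 0.43, beside -0.0064 over all genes tested. The 3 genes with recovered reads added no DEG to this comparison, in a fit where 8.09% of all genes were DEGs.

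**Figure D1:**
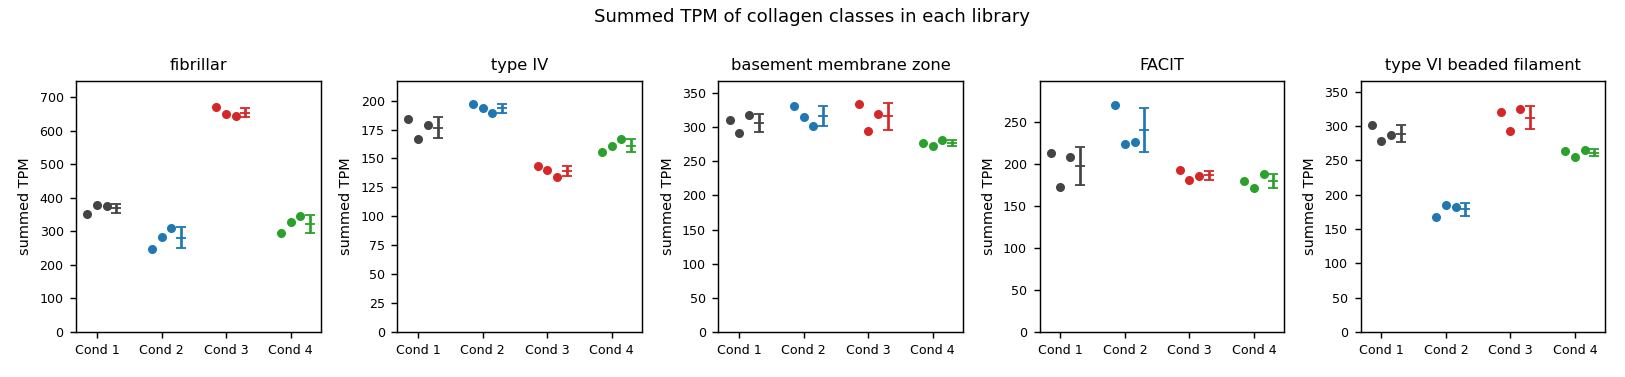
Summed TPM of the genes of a collagen class (vertical axis, starting at 0) in each library of Cond 1 to Cond 4, 1 panel per class, with each point 1 library and the bar the mean and SD (n = 3). Fibrillar TPM in Cond 3 lies above all other libraries, type IV TPM in Cond 3 and type VI TPM in Cond 2 lie below them.

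Summed over the 11 fibrillar genes, TPM was 353, 377 and 375 in Cond 1, 248, 285 and 311 in Cond 2, 670.0, 649 and 644 in Cond 3, and 294, 328 and 347 in Cond 4. The mean in Cond 3 was 178% of that in Cond 1, and its 3 libraries did not overlap any other. Type IV TPM summed to 184, 167 and 179 in Cond 1 and to 144, 139.7 and 134 in Cond 3, 78.8% of the control mean. In Cond 2 it summed to 197, 194 and 189, which was 109.5% of the control mean by TPM but 99.6% by CPM. The CPM scale does not divide by length and was also scaled between libraries by TMM. The ratio of fibrillar to type IV TPM was 2.09 ± 0.175 in Cond 1 and 2.00 ± 0.102 in Cond 4, against 1.46 ± 0.192 in Cond 2 and 4.70 ± 0.0823 in Cond 3. The fibrillar sums of Cond 2, at 76.4% of the control mean, lay below those of Cond 1. The class sums are descriptions without a test, and a sum is carried by its most abundant members.

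Of 10 fibrillar genes tested in Cond 3, 7 rose, 1 fell and 2 did not pass the test (19.5% of all genes rose and 18.8% fell), with a median log2 fold change of 0.82. The 2 that did not pass were COL3A1 and COL24A1.

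COL1A1 (ENSG00000108821, chromosome 17, 50184101 to 50201632, reverse strand) encodes the alpha 1 chain of type I collagen. Its TPM was 234, 259 and 244 in Cond 1, 157, 190.5 and 202 in Cond 2, 454, 435 and 419 in Cond 3, and 191, 222 and 221 in Cond 4. Every library of Cond 3 lay above every other library, and every library of Cond 2 lay below those of Cond 1. The log2 fold change in Cond 3 was 0.80 (standard error 0.067, adjusted p = 3.42e-09), and in Cond 2 it was -0.51 (standard error 0.068, adjusted p = 4.68e-06). Its partner COL1A2 (ENSG00000164692, chromosome 7, 94394895 to 94431227, forward strand) had a TPM of 48.7, 46.8 and 45.5 in Cond 1, 36.2, 36.5 and 40.1 in Cond 2, 112, 106 and 111 in Cond 3, and 42.7, 38.9 and 48.6 in Cond 4. Cond 3 again stood above all others, where its log2 fold change was 1.20 (standard error 0.066, adjusted p = 2.45e-12), and Cond 2 was lower by -0.41 (standard error 0.066, adjusted p = 7.04e-05). The rise in Cond 3 was steeper for COL1A2, and the ratio of COL1A1 to COL1A2 TPM, a description that like the other chain ratios was chosen after the values had been seen, was 5.24 ± 0.382 in Cond 1 and 3.97 ± 0.178 in Cond 3.

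**Figure D2:**
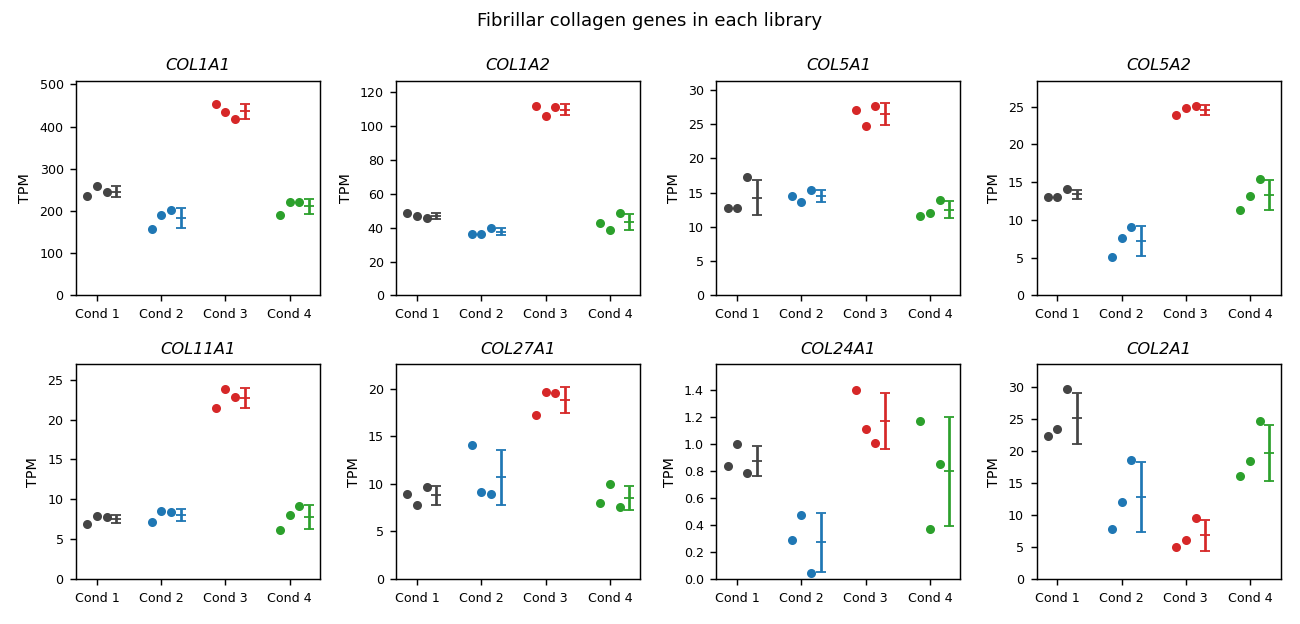
TPM of 8 fibrillar collagen genes (vertical axes start at 0 and differ between panels) in each library of Cond 1 to Cond 4, each point 1 library and the bar the mean and SD (n = 3). COL1A1, COL1A2, COL5A1, COL5A2, COL11A1 and COL27A1 are highest in all libraries of Cond 3, whereas COL2A1 is highest in Cond 1 and low in Cond 2 and Cond 3.

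COL5A1 and COL5A2, which encode the type V chains found inside type I fibres, differed in how they responded. COL5A2 TPM was 13.1, 13.1 and 14.1 in Cond 1, 5.11, 7.58 and 9.02 in Cond 2, 23.8, 24.8 and 25.1 in Cond 3, and 11.3, 13.2 and 15.4 in Cond 4. It was high in Cond 3 (log2 fold change 0.84, standard error 0.13, adjusted p = 1.35e-05) and low in Cond 2 (log2 fold change -0.98, standard error 0.14, adjusted p = 9.62e-06), with no overlap between these and Cond 1. COL5A1 TPM was 14.3 ± 2.58 in Cond 1 and 14.5 ± 0.907 in Cond 2, against 26.5 ± 1.57 in Cond 3. It rose in Cond 3 (log2 fold change 0.86, standard error 0.10, adjusted p = 7.09e-07) and did not pass the test in Cond 2. The ratio of COL5A1 to COL5A2 TPM was 1.06 ± 0.144 in Cond 1 and 1.08 ± 0.0723 in Cond 3, but 2.11 ± 0.630 in Cond 2. COL5A2 in Cond 2 sat just short of the DEG limit and passed it when replicate 1 or 2 of Cond 1 or replicate 2 or 3 of Cond 2 was left out (log2 fold changes of -1.01, -1.0, -1.01 and -1.16), and COL5A1 in Cond 3 passed it without replicate 3 of Cond 1 (1.03). COL5A3, another type V chain, rose from 5.13 ± 0.451 TPM to 7.50 ± 0.483 TPM in Cond 3 (log2 fold change 0.52, standard error 0.14, adjusted p = 0.00625).

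COL11A1 encodes a type XI chain, the counterpart of type V in cartilage fibres, and showed the steepest rise of the fibrillar genes. Its TPM was 6.93, 7.83 and 7.83 in Cond 1, 7.18, 8.53 and 8.38 in Cond 2, 21.4, 23.9 and 22.9 in Cond 3, and 6.18, 7.97 and 9.09 in Cond 4. Cond 1, Cond 2 and Cond 4 overlapped, and the Cond 3 libraries stood apart from all of them (log2 fold change 1.56, standard error 0.11, adjusted p = 2.5e-10). COL27A1, a fibrillar gene of cartilage, had a TPM of 8.93, 7.73 and 9.67 in Cond 1, 14.0, 9.09 and 8.87 in Cond 2, 17.2, 19.6 and 19.5 in Cond 3, and 8.01, 9.97 and 7.58 in Cond 4. It was a DEG in Cond 3 (log2 fold change 1.07, standard error 0.14, adjusted p = 2.9e-06), with a log2 fold change of 0.98 when replicate 2 of Cond 1 was left out. In Cond 2 the library of replicate 1 stood above the other 2, and the gene did not pass the test. COL24A1, a fibrillar gene known from bone and cornea, had a TPM of 0.835, 0.996 and 0.785 in Cond 1, 0.289, 0.476 and 0.0434 in Cond 2, 1.40, 1.11 and 1.0 in Cond 3, and 1.17, 0.366 and 0.850 in Cond 4, from 2 to 82 reads per library. Cond 2 and Cond 1 did not overlap (log2 fold change -1.73, standard error 0.47, adjusted p = 0.00971), whereas Cond 3 did not pass the test against Cond 1. That value was -2.42 without replicate 2 of Cond 2 and -1.25 without its replicate 3. With limma on log2(TPM + 1), COL24A1 in Cond 2 no longer passed (adjusted p = 0.132).

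COL2A1 (ENSG00000139219, chromosome 12, 47972967 to 48004554, reverse strand), the main fibrillar gene of cartilage, was the exception among the fibrillar genes. Its TPM was 22.3, 23.3 and 29.6 in Cond 1, 7.72, 12 and 18.5 in Cond 2, 4.90, 6.00 and 9.50 in Cond 3, and 16.1, 18.3 and 24.6 in Cond 4. Cond 3 and Cond 2 were both lower than Cond 1 without overlap. The log2 fold change was -1.92 (standard error 0.23, adjusted p = 6.93e-07) in Cond 3 and -1.08 (standard error 0.22, adjusted p = 0.000875) in Cond 2. In Cond 2 the fold change dropped under 2 when replicate 3 of Cond 1 (log2 fold change -0.93) or replicate 1 of Cond 2 (-0.83) was left out, and the adjusted p rose to 0.0679 with limma on log2(TPM + 1). SOX9, which activates COL2A1 in chondrocytes, rose in the same comparisons, with log2 fold changes of 0.89 in Cond 2 (standard error 0.12, adjusted p = 1.03e-05) and 1.33 in Cond 3 (standard error 0.12, adjusted p = 1.53e-08).

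**Figure D3:**
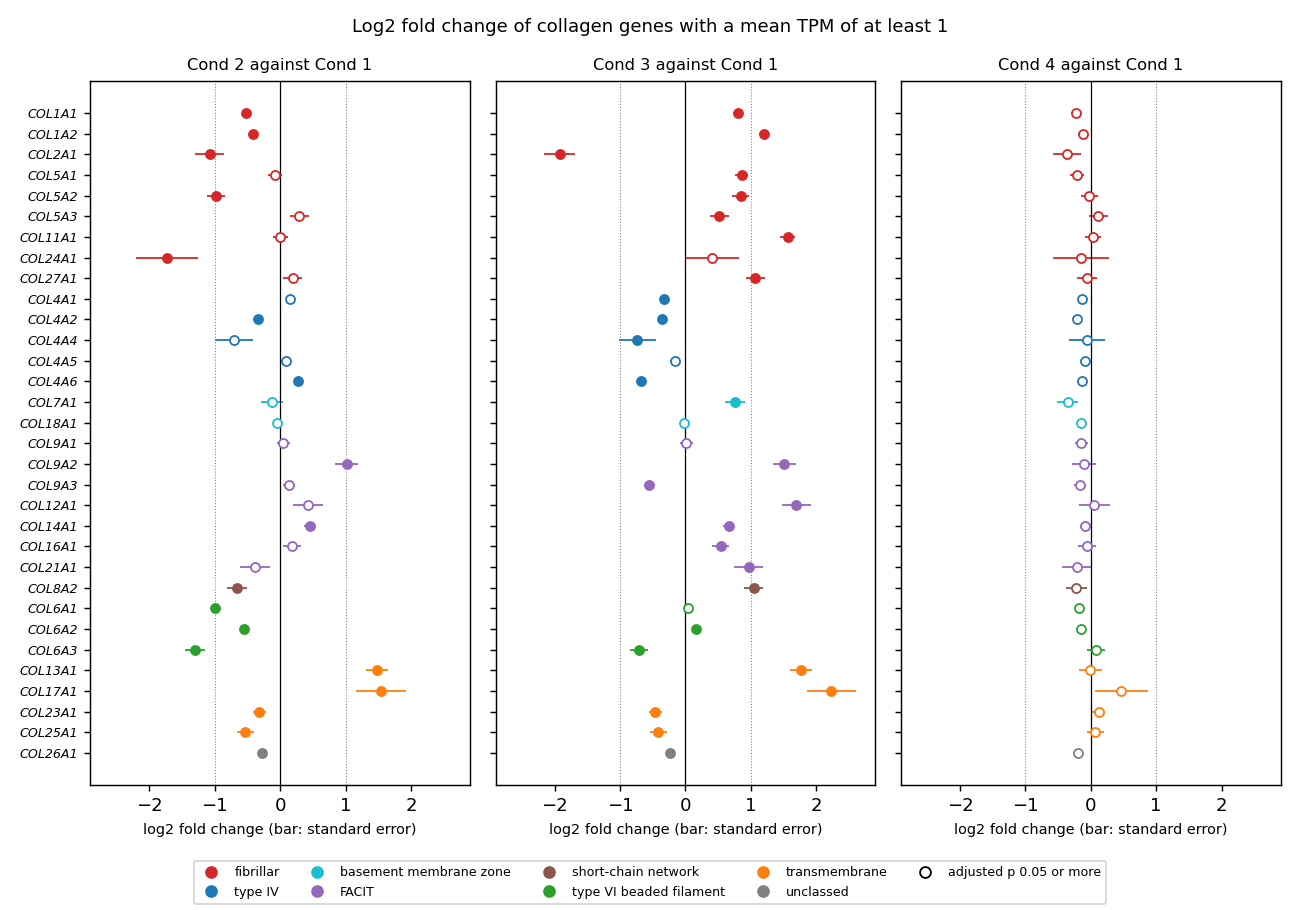
Log2 fold change (horizontal axis, bar the standard error) of the collagen genes with a mean of at least 1 TPM in a condition, coloured by class, for Cond 2, Cond 3 and Cond 4 against Cond 1. Filled points have an adjusted p under 0.05 and dotted lines mark a fold change of 2. Fibrillar points lie mostly to the right and type IV points to the left in Cond 3, type VI points lie to the left in Cond 2, and no point is filled in Cond 4.

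Type IV collagen genes lie in head-to-head pairs whose transcription starts point away from each other, so that both genes of a pair share a start region. In the RefSeq start windows used here (GRCh38.p14, 250 bases before to 50 bases after a start), the starts of COL4A1 and COL4A2 on chromosome 13 were 127 bases apart and their windows shared 226 bases. Those of COL4A5 and COL4A6 on chromosome X were 380 bases apart and shared 121 bases, and a second COL4A6 start lay 1416 bases from that of COL4A5. The 4 windows are printed because the TPM ratios within both pairs differed between conditions, as given after them. No such ratio passed a test, and whether the start sequences play a part was not tested. Capitals mark the TATA box letters TATAAA, the CAAT box letters CCAAT and the GC box letters GGGCGG on either strand, none of which overlapped another.
COL4A1, chr13:110307108-110307407, reverse strand: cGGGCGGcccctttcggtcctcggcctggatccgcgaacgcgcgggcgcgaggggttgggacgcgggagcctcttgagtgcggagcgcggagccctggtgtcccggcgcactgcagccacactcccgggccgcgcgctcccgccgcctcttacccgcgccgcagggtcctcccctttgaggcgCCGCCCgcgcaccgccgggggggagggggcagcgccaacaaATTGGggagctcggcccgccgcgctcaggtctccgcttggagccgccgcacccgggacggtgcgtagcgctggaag
COL4A2, chr13:110307034-110307333, forward strand: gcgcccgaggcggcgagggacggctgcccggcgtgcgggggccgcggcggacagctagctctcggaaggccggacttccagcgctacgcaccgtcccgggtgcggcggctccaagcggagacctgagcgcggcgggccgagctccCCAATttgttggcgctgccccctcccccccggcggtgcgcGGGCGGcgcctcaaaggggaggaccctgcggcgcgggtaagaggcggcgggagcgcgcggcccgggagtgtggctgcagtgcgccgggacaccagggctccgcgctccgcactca
COL4A5, chrX:108439588-108439887, forward strand: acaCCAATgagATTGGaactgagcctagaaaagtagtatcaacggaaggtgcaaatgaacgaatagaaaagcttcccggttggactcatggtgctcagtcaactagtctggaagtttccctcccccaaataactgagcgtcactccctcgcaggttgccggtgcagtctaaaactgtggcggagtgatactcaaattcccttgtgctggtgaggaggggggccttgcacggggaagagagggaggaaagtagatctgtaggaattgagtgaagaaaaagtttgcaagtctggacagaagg
COL4A6, chrX:108439409-108439708, reverse strand: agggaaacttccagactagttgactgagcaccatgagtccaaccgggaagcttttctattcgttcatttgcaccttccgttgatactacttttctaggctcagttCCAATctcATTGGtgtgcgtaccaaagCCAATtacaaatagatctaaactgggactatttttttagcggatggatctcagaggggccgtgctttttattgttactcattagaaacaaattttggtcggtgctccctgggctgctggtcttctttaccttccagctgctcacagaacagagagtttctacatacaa
None of the 4 windows held TATAAA, which 11.5% of all 35116 RefSeq windows held. The COL4A1 and COL4A2 windows held GGGCGG, as 45.0% of all windows did, while those of COL4A5 and COL4A6 did not. All 4 held CCAAT, which 34.6% of all windows held. The windows of a pair overlap, so sites in the shared bases were counted in both. COL4A3 and COL4A4 form another such pair, with starts 419 bases apart and windows sharing 82 bases. Neither of their windows, not printed, held CCAAT or TATAAA, and that of COL4A3 held GGGCGG. The window of the second COL4A6 start, not printed, held GGGCGG and no CCAAT. Among 44 windows of 32 collagen genes, 18.2% held TATAAA, 31.8% CCAAT and 54.5% GGGCGG. COL1A1, COL1A2, COL2A1, COL3A1, COL5A2, COL6A1, COL6A5, COL8A1, COL9A3, COL14A1, COL20A1 and COL22A1 had no entry.

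Of the 6 type IV genes in Cond 3, 5 fell, none rose and COL4A5 did not pass the test, where 18.8% of all genes fell, with a median log2 fold change of -0.52. COL4A1 and COL4A2, the chains of nearly all basement membranes, moved together. COL4A1 TPM was 51.9 ± 3.88 in Cond 1 and 42.3 ± 1.11 in Cond 3 (log2 fold change -0.32, standard error 0.062, adjusted p = 0.000225). COL4A2 TPM was 48.8 ± 1.07 in Cond 1 and 38.9 ± 1.86 in Cond 3 (log2 fold change -0.35, standard error 0.054, adjusted p = 1.79e-05). In Cond 2 they parted. COL4A1 stood at 61.3 ± 1.43 TPM and did not pass the test, whereas COL4A2 fell to 41.2 ± 1.63 TPM (log2 fold change -0.33, standard error 0.054, adjusted p = 8.12e-05). The ratio of COL4A1 to COL4A2 TPM was 1.09, 0.997 and 1.10 in Cond 1, 1.5, 1.5 and 1.46 in Cond 2, 1.08, 1.14 and 1.04 in Cond 3, and 1.11, 1.08 and 1.17 in Cond 4. Only the Cond 2 ratios stood apart from those of Cond 1. An exact permutation test of 18 chain ratio comparisons with Cond 1 could give no p under 0.1. Its lowest Benjamini-Hochberg adjusted p was 0.225, so no chain ratio passed.

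COL4A6 and COL4A5 encode chains that assemble together in some basement membranes, and COL4A6 moved more. Its TPM was 40.7, 38.5 and 39.2 in Cond 1, 54.0, 51.4 and 46.8 in Cond 2, 25.9, 26.0 and 23.6 in Cond 3, and 35.8, 36.1 and 37.2 in Cond 4. It was high in all libraries of Cond 2 (log2 fold change 0.28, standard error 0.066, adjusted p = 0.00359) and low in all of Cond 3 (log2 fold change -0.68, standard error 0.067, adjusted p = 4.48e-08). COL4A5 TPM stayed between 29.0 and 41.2 and did not pass the test against Cond 1 in either condition. The ratio of COL4A5 to COL4A6 TPM, 0.886 ± 0.0648 in Cond 1, was 0.778 ± 0.0218 in Cond 2 and 1.27 ± 0.0407 in Cond 3, neither overlapping Cond 1. COL4A4 fell from 1.06 ± 0.174 TPM to 0.647 ± 0.197 TPM in Cond 3 (log2 fold change -0.73, standard error 0.29, adjusted p = 0.0459), a call lost with replicate 1 or 2 of Cond 1 or replicate 1 or 3 of Cond 3 left out (adjusted p between 0.0753 and 0.198). COL4A3, a chain of the kidney filter, was a DEG in both conditions at a low level, with 21, 22 and 11 reads in Cond 1, 5, 6 and 2 in Cond 2 and 1, 10 and 6 in Cond 3. Its calls were lost without replicate 1 or 2 of Cond 1, without replicate 2 or 3 of Cond 2, and without replicate 1 or 3 of Cond 3.

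The other basement membrane genes did not follow type IV. COL18A1 TPM was 300.0, 284 and 306 in Cond 1, 318, 306 and 294 in Cond 2, 318, 277 and 301 in Cond 3, and 268, 264 and 273 in Cond 4. Levels in Cond 1, Cond 2 and Cond 3 overlapped, those in Cond 4 lay just below them, and COL18A1 did not pass the test in any comparison. By the GENCODE annotation 18.5% of its exon bases are also exons of SLC19A1 on the opposite strand, and the strand setting of the counting is not given in the sources used here. COL7A1, the anchoring fibril gene of skin, rose from 9.75 ± 2.29 TPM in Cond 1 to 16.9 ± 1.14 TPM in Cond 3 (log2 fold change 0.76, standard error 0.16, adjusted p = 0.000516). COL15A1, a basement membrane proteoglycan gene, had 15, 13 and 11 reads in Cond 1, 7, 5 and 10 in Cond 2 and 24, 18 and 26 in Cond 3. It did not pass the test against Cond 1 and was a DEG between Cond 3 and Cond 2, a call lost without replicate 1 or 2 of Cond 2 or replicate 1 or 3 of Cond 3.

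**Figure D4:**
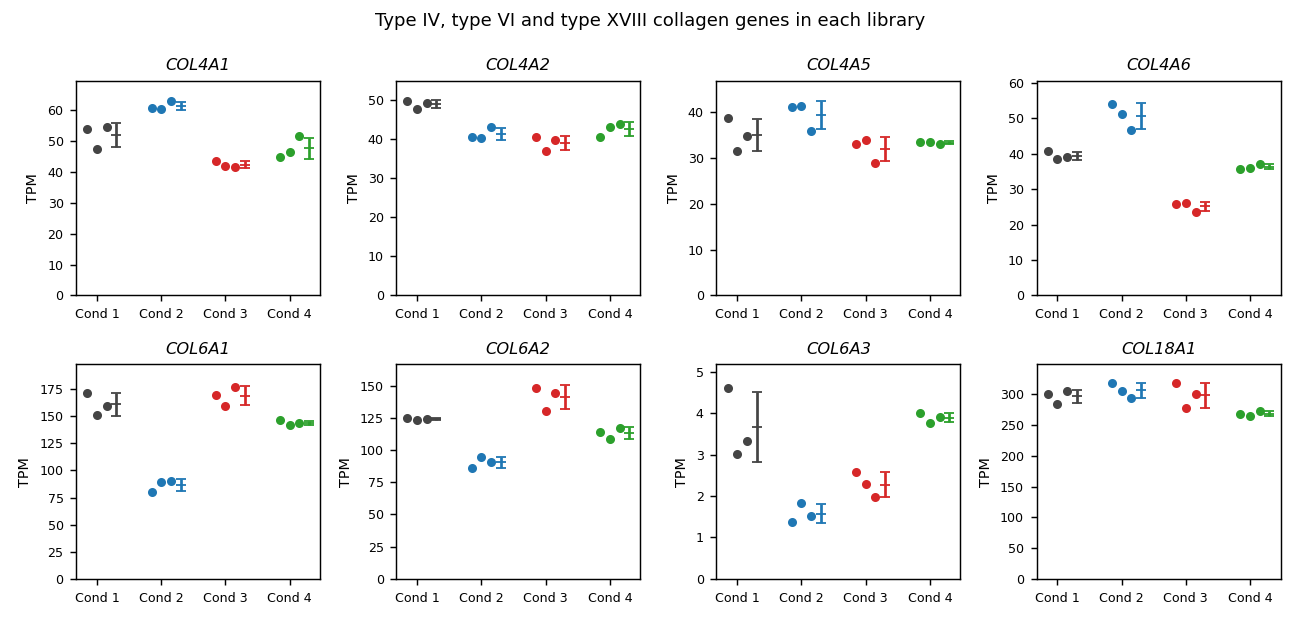
TPM of 4 type IV, 3 type VI and the type XVIII collagen gene (vertical axes start at 0 and differ between panels) in each library of Cond 1 to Cond 4, each point 1 library and the bar the mean and SD (n = 3). COL4A6 is high in Cond 2 and low in Cond 3, and COL6A1, COL6A2 and COL6A3 are lowest in all libraries of Cond 2.

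In Cond 2 the 3 main type VI chains and 5 of the fibrillar genes were lower. Against Cond 1, 8 of 38 collagen genes tested (21.1%) were DEGs, 3 higher and 5 lower, and of all genes tested 4.34% were DEGs, 1.84% higher and 2.5% lower. By adjusted p alone 5 rose and 13 fell, whereas among all genes 20.9% passed, 10.8% upward and 10.1% downward. Recovered reads added no DEG here either (4.35% of all genes in that fit). The median log2 fold change was -0.05, beside 0.0002 over all genes. Of 10 fibrillar genes, 5 fell and none rose, with a median of -0.24, and these were COL1A1, COL1A2, COL2A1, COL5A2 and COL24A1. With limma on log2(TPM + 1), 1 collagen DEG was counted in this comparison.

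The 3 chains of the common form of type VI collagen all fell in Cond 2. COL6A1 TPM was 172, 151 and 159.7 in Cond 1, 80.0, 89.0 and 89.8 in Cond 2, 169, 159.7 and 177 in Cond 3, and 146, 142 and 143 in Cond 4. The libraries of Cond 2 stood well below all others (log2 fold change -0.99, standard error 0.059, adjusted p = 3.73e-11 from recovered reads). COL6A2 TPM was 124 ± 0.766 in Cond 1, 90.3 ± 4.22 in Cond 2, 141 ± 9.43 in Cond 3 and 113 ± 4.33 in Cond 4. Its log2 fold change in Cond 2 was -0.55 (standard error 0.057, adjusted p = 2.03e-07), and in Cond 3 it was 0.15 (standard error 0.056, adjusted p = 0.033). The small difference in Cond 3 had an adjusted p between 0.0686 and 0.169 with replicate 1, 2 or 3 of Cond 1 or replicate 1 or 3 of Cond 3 left out. COL6A3 was far less abundant. Its TPM was 4.61, 3.02 and 3.33 in Cond 1, 1.38, 1.82 and 1.52 in Cond 2, 2.58, 2.29 and 1.97 in Cond 3, and 4.00, 3.77 and 3.91 in Cond 4, low in all libraries of Cond 2 (log2 fold change -1.30, standard error 0.15, adjusted p = 6.06e-07) and also below Cond 1 in Cond 3 (log2 fold change -0.71, standard error 0.14, adjusted p = 0.000382). The ratio of COL6A1 to COL6A2 TPM was 1.30 ± 0.0752 in Cond 1 and 0.955 ± 0.0300 in Cond 2, without overlap. COL6A1 in Cond 2 sat at the DEG limit, with a log2 fold change of -1.03 without replicate 2 of Cond 1 and -1.01 without replicate 3 of Cond 2. COL6A5, a chain of restricted expression, had 12, 4 and 7 reads in Cond 1 and 0, 1 and 0 in Cond 3, where it was a DEG.

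The transmembrane collagens split into a pair that rose and a pair that fell, the same in Cond 2 and Cond 3. These comparisons share the Cond 1 libraries, so their values are set side by side. COL13A1, found at cell adhesion sites and the neuromuscular junction, had a TPM of 4.1, 6.19 and 4.00 in Cond 1, 15.4, 14.3 and 12.3 in Cond 2, 20.3, 13.3 and 15.4 in Cond 3, and 4.20, 5.03 and 4.99 in Cond 4. All libraries of Cond 2 and Cond 3 lay above all of Cond 1 and Cond 4, with log2 fold changes of 1.48 (standard error 0.17, adjusted p = 5.45e-07) and 1.76 (standard error 0.17, adjusted p = 1.95e-08). COL17A1, the hemidesmosome collagen of epithelia, had a TPM of 0.883, 0.182 and 0.415 in Cond 1, 1.61, 1.63 and 1.43 in Cond 2, 2.69, 2.40 and 2.13 in Cond 3, and 0.393, 0.864 and 0.820 in Cond 4, from 6 to 115 reads per library. It was above Cond 1 in every library of Cond 2 (log2 fold change 1.55, standard error 0.38, adjusted p = 0.0043) and of Cond 3 (log2 fold change 2.23, standard error 0.37, adjusted p = 4.47e-05). Without replicate 1 of Cond 1, the highest library of that group, these values were 2.24 and 2.92. The lowest with any 1 library left out were 1.18 and 1.86. COL23A1 and COL25A1 were lower in both. COL23A1 TPM was 26.5 ± 2.47 in Cond 1, 22.6 ± 1.03 in Cond 2 (log2 fold change -0.32, standard error 0.098, adjusted p = 0.0232) and 19.6 ± 0.575 in Cond 3 (log2 fold change -0.46, standard error 0.099, adjusted p = 0.000725). COL25A1, known from brain amyloid plaques, was at 6.34 ± 0.641, 4.68 ± 0.436 and 4.86 ± 0.431 TPM, with log2 fold changes of -0.53 (standard error 0.13, adjusted p = 0.00461) and -0.41 (standard error 0.13, adjusted p = 0.0139). The adjusted p of COL23A1 in Cond 2 lay between 0.0502 and 0.143 without replicate 1 of Cond 1 or any 1 library of Cond 2, and that of COL25A1 in Cond 3 was 0.0777 without replicate 1 of Cond 1 and 0.0721 without replicate 2 of Cond 3.

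Of 8 FACIT genes tested, 2 rose and none fell in Cond 2, where 20.9% of all genes passed the test, and 5 rose and 1 fell in Cond 3, where 38.4% did. The type IX chains, which coat cartilage fibres, went different ways. COL9A2 TPM was 7.32, 6.83 and 6.76 in Cond 1, 19.9, 14.9 and 10.0 in Cond 2, 20.6, 19.9 and 20.5 in Cond 3, and 6.87, 6.38 and 6.32 in Cond 4. All libraries of Cond 2 and Cond 3 lay above Cond 1, with log2 fold changes of 1.02 (standard error 0.17, adjusted p = 0.000126) and 1.51 (standard error 0.17, adjusted p = 2.95e-07). The spread in Cond 2 was wide, and without its replicate 1 the log2 fold change there was 0.74 (adjusted p = 0.000829). COL9A3 TPM was 156, 123 and 153 in Cond 1, 191, 152 and 162 in Cond 2, 105, 96.9 and 98.9 in Cond 3, and 129, 123 and 134 in Cond 4. It was low in all libraries of Cond 3 (log2 fold change -0.55, standard error 0.088, adjusted p = 2.94e-05) and did not pass the test in Cond 2. The ratio of COL9A3 to COL9A2 TPM, 20.6 ± 2.41 in Cond 1, was 12 ± 3.64 in Cond 2 and 4.93 ± 0.137 in Cond 3. COL9A1, the remaining chain of type IX, stayed between 18.1 and 26.4 TPM and did not pass the test in any comparison.

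COL12A1, which binds type I fibres, had a TPM of 2.41, 2.07 and 2.56 in Cond 1, 1.92, 4.00 and 4.24 in Cond 2, 7.02, 9.17 and 7.17 in Cond 3, and 1.59, 2.76 and 3.01 in Cond 4. Its Cond 3 libraries lay above all others (log2 fold change 1.70, standard error 0.22, adjusted p = 1.51e-06), and the gene did not pass the test in Cond 2. COL21A1 TPM was 2.34, 1.87 and 1.38 in Cond 1, 1.52, 1.57 and 1.44 in Cond 2, 4.18, 3.62 and 3.30 in Cond 3, and 1.86, 1.27 and 1.71 in Cond 4, also highest in every library of Cond 3 (log2 fold change 0.97, standard error 0.22, adjusted p = 0.00123). It just missed the DEG limit and passed it without replicate 1 of Cond 1 (log2 fold change 1.16) or replicate 3 of Cond 3 (1.04). COL14A1, a FACIT gene of tendon and skin, was at 10.2 ± 0.265 TPM in Cond 1 and rose to 14.9 ± 1.0 in Cond 2 and 16.5 ± 0.428 in Cond 3, by log2 fold changes of 0.46 (standard error 0.087, adjusted p = 0.000409) and 0.66 (standard error 0.086, adjusted p = 2.24e-06). COL16A1 rose in Cond 3 from 9.67 ± 0.773 to 14.3 ± 1.22 TPM (log2 fold change 0.54, standard error 0.13, adjusted p = 0.0023).

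**Figure D5:**
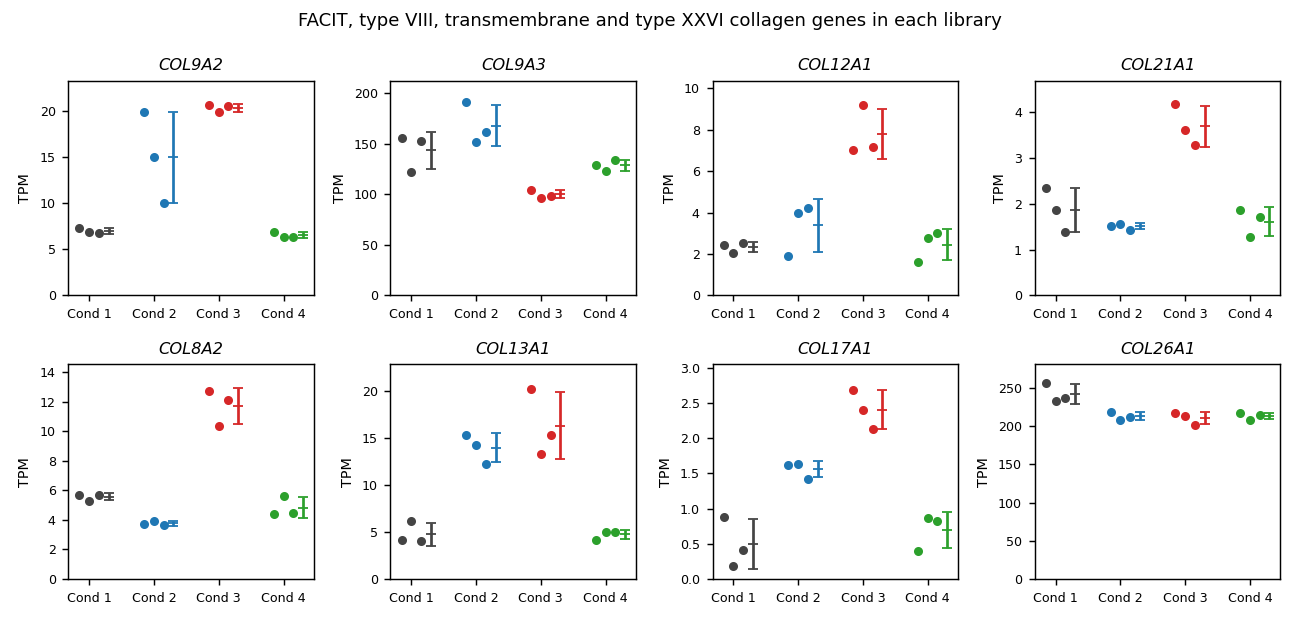
TPM of 4 FACIT genes, COL8A2, COL13A1, COL17A1 and COL26A1 (vertical axes start at 0 and differ between panels) in each library of Cond 1 to Cond 4, each point 1 library and the bar the mean and SD (n = 3). COL9A2, COL13A1 and COL17A1 are above Cond 1 in both Cond 2 and Cond 3, COL12A1 and COL21A1 are highest in Cond 3, and COL8A2 is low in Cond 2 and high in Cond 3.

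COL8A2, a short-chain collagen of the corneal endothelial membrane, moved in opposite directions. Its TPM was 5.71, 5.31 and 5.70 in Cond 1, 3.69, 3.94 and 3.65 in Cond 2, 12.7, 10.4 and 12.1 in Cond 3, and 4.39, 5.63 and 4.47 in Cond 4. The libraries of Cond 2 lay below and those of Cond 3 above all of Cond 1, with log2 fold changes of -0.66 (standard error 0.16, adjusted p = 0.00431) and 1.04 (standard error 0.15, adjusted p = 6.93e-06). Without replicate 1 of Cond 3 the latter was 0.99, just short of a fold change of 2. COL26A1, one of the most abundant collagen genes in these cells, had a TPM of 256, 233 and 237 in Cond 1, 219, 208 and 212 in Cond 2, 217, 213 and 202 in Cond 3, and 217, 209 and 214 in Cond 4. It was slightly lower in all libraries of Cond 2 and Cond 3 than in Cond 1, by log2 fold changes of -0.27 (standard error 0.055, adjusted p = 0.000815) and -0.23 (standard error 0.055, adjusted p = 0.00194). The Cond 4 libraries also lay below those of Cond 1, but there the gene did not pass the test. COL28A1 had 15, 33 and 41 reads in Cond 1, 7, 15 and 2 in Cond 2 and 9, 7 and 15 in Cond 3, and was a DEG in both conditions. Its calls were lost without replicate 2 or 3 of Cond 1, without replicate 3 of Cond 2, and without replicate 1 or 2 of Cond 3.

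Cond 3 was also compared with Cond 2 directly. By the paper's account the FBS medium was given later in culture than the heated medium. Medium and time of exposure therefore cannot be told apart in this comparison. Here 10 of 38 collagen genes (26.3%) were DEGs, 9 higher and 1 lower in Cond 3. Of all genes 8.77% were DEGs, 5.76% higher and 3.01% lower. COL6A1 joined them with recovered reads, in a fit where 8.75% of all genes were DEGs. By adjusted p alone 15 collagen genes were higher and 6 lower, whereas among all genes 38.2% passed, 19.0% higher and 19.2% lower in Cond 3. Of 10 fibrillar genes, 7 were higher in Cond 3 and COL2A1 was lower. On the log2 scale COL1A1 differed by 1.31 (standard error 0.068, adjusted p = 1.22e-12), COL1A2 by 1.60 (standard error 0.067, adjusted p = 2.01e-14), COL5A2 by 1.83 (standard error 0.13, adjusted p = 3.23e-10), COL11A1 by 1.56 (standard error 0.11, adjusted p = 2.28e-10) and COL24A1 by 2.13 (standard error 0.46, adjusted p = 0.00079). Without replicate 2 of Cond 2 the difference in COL24A1 was 2.82. COL6A1 was higher in Cond 3 by 1.03 (standard error 0.059, adjusted p = 1.2e-11), COL8A2 by 1.70 (standard error 0.15, adjusted p = 1.06e-08) and COL21A1 by 1.35 (standard error 0.22, adjusted p = 4.66e-05). COL12A1 was higher by 1.26 (standard error 0.21, adjusted p = 4.72e-05), and by 1.0 without replicate 1 of Cond 2. The DEG lower in Cond 3 was COL6A5. Of the type IV genes, COL4A1, COL4A5 and COL4A6 were lower in Cond 3, with a log2 fold change for COL4A6 of -0.95 (standard error 0.067, adjusted p = 1.68e-10), and the adjusted p of COL4A5 lay between 0.0576 and 0.104 without replicate 1 or 2 of Cond 2 or replicate 3 of Cond 3. COL13A1, COL17A1, COL23A1 and COL25A1, the transmembrane genes, did not pass the test between Cond 3 and Cond 2. COL2A1 was lower in Cond 3 (log2 fold change -0.84, standard error 0.24, adjusted p = 0.00682), but its adjusted p was 0.0842 without replicate 3 of Cond 2 and 0.0565 without replicate 1 of Cond 3. COL9A2 was higher in Cond 3 (log2 fold change 0.49, standard error 0.16, adjusted p = 0.019), with an adjusted p between 0.0503 and 0.137 when replicate 2 or 3 of Cond 2 or replicate 1 or 3 of Cond 3 was left out.

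In Cond 4 none of the 38 collagen genes tested by edgeR was a DEG or had an adjusted p under 0.05, where 0.0169% of all genes were DEGs and 0.0282% had such an adjusted p. At an unadjusted p under 0.05 there were 5 collagen genes, all lower (3.31% of all genes were lower at that level), and DESeq2 and limma also counted 0 collagen DEGs. Their log2 fold changes ran from -0.75 to 0.95 with a median of -0.10, and 26 of the 38 were below 0. On the TPM scale the fibrillar sum was 87.7% of that in Cond 1, the type VI sum 90.4% and the basement membrane zone sum 90.2%, with all libraries of Cond 4 below all of Cond 1 in these classes. The type IV sum was 91.3%, with overlapping libraries.

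Genes that make, process and bind collagen were examined as lists, whose counts by adjusted p stand beside 20.9% of all genes in Cond 2 (10.8% upward, 10.1% downward) and 38.4% in Cond 3 (19.5% upward, 18.8% downward). Of 14 genes tested that modify collagen chains in the endoplasmic reticulum, 8 fell and none rose in Cond 2 (median log2 fold change -0.27), and 5 fell and 3 rose in Cond 3 (median 0.07). P3H2, a prolyl 3-hydroxylase, was at 32.5 ± 2.66 TPM in Cond 1, 18.3 ± 4.08 in Cond 2 and 43.0 ± 2.26 in Cond 3, and its log2 fold change between Cond 3 and Cond 2 was 1.30 (standard error 0.11, adjusted p = 4.25e-09). P4HA1, the catalytic chain of a prolyl 4-hydroxylase, fell from 62.3 ± 9.49 to 33.4 ± 0.531 TPM in Cond 3 (log2 fold change -0.92, standard error 0.10, adjusted p = 1.98e-07). PLOD2, a lysyl hydroxylase, fell from 17 ± 0.611 to 9.58 ± 0.368 TPM in Cond 2 (log2 fold change -0.91, standard error 0.095, adjusted p = 1.7e-07). Of 10 genes for folding and export, 3 fell and 2 rose in Cond 2, and 5 fell and 3 rose in Cond 3, none of them a DEG. SERPINH1, the collagen chaperone HSP47, fell in Cond 3 from 608 ± 45.9 to 392 ± 27.2 TPM (log2 fold change -0.66, standard error 0.057, adjusted p = 4.3e-09) while the fibrillar sum was highest there.

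Of 13 genes for processing outside the cell and crosslinking, 2 rose and 3 fell in Cond 2 (20.9% of all genes in either direction), and 4 rose and none fell in Cond 3 (38.4% of all genes). BMP1, the protease that trims the carboxyl end of fibrillar procollagen, was at 2.23 ± 0.743 TPM in Cond 1 and 6.52 ± 1.25 in Cond 3 (log2 fold change 1.5, standard error 0.22, adjusted p = 1.1e-05). LOXL3, a crosslinking enzyme, was at 8.54 ± 1.15 and 17.8 ± 2.28 TPM (log2 fold change 1.03, standard error 0.14, adjusted p = 2.63e-06), with log2 fold changes of 0.93 without replicate 2 of Cond 1 and 0.93 without replicate 1 of Cond 3. Of 6 receptor genes tested, 2 fell in Cond 2, and 1 rose and 2 fell in Cond 3. DDR2, a kinase receptor for fibrillar collagen, fell in Cond 3 from 28.5 ± 2.87 to 8.47 ± 0.939 TPM (log2 fold change -1.78, standard error 0.10, adjusted p = 5.68e-12), and ITGA1, a collagen-binding integrin chain, rose from 0.816 ± 0.197 to 2.28 ± 0.108 TPM (log2 fold change 1.44, standard error 0.21, adjusted p = 8.8e-06). The far more abundant ITGB1, an integrin beta chain of the same list, fell in both conditions. In Cond 3 it went from 276.8 ± 19.12 to 187.4 ± 5.356 TPM (log2 fold change -0.59, standard error 0.056, adjusted p = 2.01e-08). In Cond 2 its log2 fold change was -0.58 (standard error 0.056, adjusted p = 4.68e-08).

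Of 7 degradation genes tested, 6 fell and none rose in Cond 2, where 10.1% of all genes fell, and 4 fell and 2 rose in Cond 3, where 38.4% of all genes passed the test. MMP9, a gelatinase, was at 8.98 ± 1.29 TPM in Cond 1 and 3.15 ± 0.443 in Cond 2 (log2 fold change -1.60, standard error 0.23, adjusted p = 1.79e-05), and CTSK, a collagen-cleaving cathepsin, at 9.87 ± 3.23 and 4.49 ± 0.530 TPM (log2 fold change -1.21, standard error 0.25, adjusted p = 0.00088, and -0.92 without replicate 2 of Cond 1). Of 12 matrix partner genes, 4 fell and 2 rose in Cond 2 (20.9% of all genes), and 4 fell and 2 rose in Cond 3 (38.4% of all genes). POSTN, the matrix protein periostin, was the DEG of that list in Cond 3, with 0.173 ± 0.167 TPM in Cond 1, 0.117 ± 0.102 in Cond 2 and 2.5 ± 0.744 in Cond 3. Its log2 fold change in Cond 3 was 3.74 (standard error 0.61, adjusted p = 3.67e-05), and 4.52 without replicate 1 of Cond 1. BGN, the proteoglycan biglycan, fell in Cond 2 from 13.7 ± 2.43 to 5.49 ± 1.88 TPM (log2 fold change -1.41, standard error 0.22, adjusted p = 3.23e-05).

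Of 9 genes for TGF-beta ligands, receptors and targets, a pathway known to raise fibrillar collagen, 3 rose and 2 fell in Cond 2 and 2 rose and 3 fell in Cond 3, beside 20.9% and 38.4% of all genes. Of the ligands, TGFB1, named after its values were seen, rose in Cond 3 from 13.1 ± 0.680 to 24.8 ± 0.679 TPM (log2 fold change 0.90, standard error 0.13, adjusted p = 7.89e-06). TGFB2 rose in Cond 2 from 0.670 ± 0.115 to 1.92 ± 0.405 TPM (log2 fold change 1.42, standard error 0.38, adjusted p = 0.00917), with an adjusted p of 0.0539 without replicate 2 of Cond 2. Of the targets, CCN2 fell in Cond 3 from 464 ± 25.3 to 120.0 ± 25.7 TPM (log2 fold change -1.98, standard error 0.096, adjusted p = 3.3e-13). SKIL, which restrains the pathway, fell from 64.4 ± 1.16 to 27.2 ± 4.40 TPM (log2 fold change -1.27, standard error 0.088, adjusted p = 1.36e-10). SMAD7, an inhibitor that the pathway induces, rose in Cond 2 from 22.9 ± 2.31 to 44.9 ± 13.1 TPM (log2 fold change 0.89, standard error 0.16, adjusted p = 0.000253) and fell in Cond 3 to 12 ± 2.94 TPM (log2 fold change -0.97, standard error 0.17, adjusted p = 0.000102).

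Markers of other cell types also moved with the conditions, and their part in the collagen differences was not tested. Counts of markers that rose or fell stand beside 20.9% of all genes in Cond 2 and 38.4% in Cond 3. Neural ectoderm markers summed to between 346 and 402 TPM over 6 genes in Cond 1, 767 and 1088 in Cond 2, 518 and 546 in Cond 3, and 348 and 402 in Cond 4. Of 5 tested, LHX5, HESX1, SIX3 and PAX6 rose in Cond 2 and LHX5, HESX1 and NES in Cond 3, while PAX6 and SOX1 stayed under 1 TPM in each condition. Chondrocyte markers summed to between 30.6 and 37.0 TPM over 6 genes in Cond 1, 47.3 and 57.6 in Cond 2, 52.0 and 60.2 in Cond 3, and 30.1 and 35.4 in Cond 4, with MATN1 and COMP under 1 TPM in each. Of 4 tested, SOX9 rose in Cond 2, and SOX9 and ACAN rose in Cond 3. Fibroblast markers summed to between 145 and 176.5 TPM over 11 genes in Cond 1, 77.1 and 87.0 in Cond 2, 107 and 115 in Cond 3, and 142 and 157 in Cond 4. That sum was carried by THY1, which fell from 141 ± 15.8 to 60.5 ± 2.98 TPM in Cond 2 (log2 fold change -1.31, standard error 0.075, adjusted p = 8.84e-12) and to 48.9 ± 0.333 TPM in Cond 3 (log2 fold change -1.56, standard error 0.076, adjusted p = 3.63e-13). In Cond 3 the others called went the opposite way. Of 7 fibroblast markers tested in Cond 3, 3 were DEGs higher and 1 was a DEG lower, with a median log2 fold change of 1.09. Of all genes 4.85% were DEGs higher and 3.31% lower in that condition. S100A4 rose there from 7.53 ± 0.515 to 46.9 ± 4.50 TPM (log2 fold change 2.61, standard error 0.25, adjusted p = 3.12e-08), PDGFRA rose from 0.450 ± 0.127 to 0.979 ± 0.128 TPM (log2 fold change 1.09, standard error 0.33, adjusted p = 0.0107), and POSTN, given above with the matrix partners, completed the 3. Endothelial markers, mostly TEK, summed to between 29.2 and 33.0 TPM over 6 genes in Cond 1, 42.2 and 44.7 in Cond 2, 55.0 and 62.5 in Cond 3, and 24.3 and 30.6 in Cond 4, with PECAM1 and CDH5 under 1 TPM in each. Of 3 tested, TEK and VWF rose and TIE1 fell in Cond 2, and TEK rose in Cond 3. Endoderm markers, in Cond 3 mostly AFP, summed to between 0.302 and 1.0 TPM over 6 genes in Cond 1, 0.348 and 1.73 in Cond 2, 3.32 and 5.12 in Cond 3, and 0.320 and 0.632 in Cond 4. AFP rose in Cond 3 from 0.280 ± 0.438 to 3.85 ± 0.989 TPM (log2 fold change 3.63, standard error 0.73, adjusted p = 0.000377, and 6.68 without replicate 3 of Cond 1, which leaves control libraries at 0.0557 and 0 TPM), while FOXA2, GATA4 and SOX17 were at 0 there. Early mesoderm markers, mostly TBX6, summed to between 8.32 and 13.1 TPM over 6 genes in Cond 1, 12.1 and 13.5 in Cond 2, 11.1 and 16.8 in Cond 3, and 9.73 and 12.2 in Cond 4. TBXT rose in Cond 3 from 0.0806 ± 0.140 to 1.12 ± 0.383 TPM (log2 fold change 3.77, standard error 0.96, adjusted p = 0.00336). Without replicate 2 of Cond 1 the control libraries left were at 0, and no fold change is given.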

How the data were processed

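Sequenced were 12 poly(A) RNA libraries of 201B7, 3 per condition, grouped by their labels. Per the paper and the submitters' processing notes, the authors used bcl2fastq 2.20.0.422, cutadapt 4.1, fastp 0.20.1, HISAT2 2.1.0 on GRCh38 and featureCounts, and deposited raw counts per gene and TPM computed from them. The strand setting and the annotation release are not given in the sources used here. Library totals of 16441148 to 21871503 counts (median 18752394.5) left genes under 1 TPM with few reads.

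The count table held 58575 usable genes, after 5 incomplete lines were left out, and 17747 passed filterByExpr. Counts were TMM-normalized and tested with edgeR 4.0.16 (R 4.3.3). No count row was held for 2042 genes with TPM, COL18A1, COL6A1 and COL6A2 among them. TPM divided by the library's scale is reads over length, and the smallest whole length giving whole reads in all libraries (tolerance 0.001 reads, at least 200 reads) recovered 499 genes. In a check, 500 of 500 genes with known counts were recovered exactly. Coordinates came from GENCODE release 44, and MRC2 was not analysed here. For the TGF-beta list, 1 gene is not reported here and was left out of its counts. The edgeR, limma and DESeq2 fits were tested on simulated counts.

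The members, classes and lists were chosen with earlier results of these data known. Values in every library are given for collagen DEGs with a mean of at least 1 TPM in a condition and for the 5 most abundant genes. From the pathway lists, at most 3 called genes per comparison were named, those with the largest change, and marker genes and TGFB1 were named after their values were seen. Other members are given by class. Alternatives were limma 3.58.1 on log2(TPM + 1) or log2(TPM + 0.1), a TPM filter, DESeq2 1.42.0, scaling by the upper quartile, all genes unfiltered, 2 conditions alone, a replicate block, adjusted p alone and each library left out. The fit with recovered reads was added after seeing the data.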

Additional observations from a re-analysis of the deposited data

How the results depend on the processing

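Collagen DEG counts in Cond 2, Cond 3 and Cond 4 against Cond 1 were within 1.5 times the reported 8, 12 and 0, and that in Cond 3 against Cond 2 within 1.5 times the reported 10, with DESeq2, with scaling by the upper quartile, without the filter, with the 2 conditions alone and with recovered reads. In Cond 2 the count was 1 with limma on log2(TPM + 1), 3 on log2(TPM + 0.1), 1 with the TPM filter and 18 by adjusted p alone. In Cond 3 it was 7 with the TPM filter and 29 by adjusted p alone. In Cond 3 against Cond 2 it was 6 with limma on log2(TPM + 1), 6 with the TPM filter and 21 by adjusted p alone. With 1 library left out, the counts ranged from 6 to 8, 9 to 12, 0 to 0 and 9 to 11. Over all genes in Cond 2, the share of DEGs that were higher was 42.3% with edgeR and 54.2% with limma on log2(TPM + 1).

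Of the fold changes of the 18 genes with values in every library, 41 had an adjusted p under 0.05 in the reported fit. Only these were counted here. All 41 kept their sign under every alternative run. An adjusted p under 0.05 was kept by 34 under every alternative and by 39 with each library left out. Because these fold changes were selected by that test on the same libraries, their kept signs are not independent evidence. Same-numbered libraries did not deviate together (18 pairs, r between -0.013 and 0.038), so the numbers were not taken to pair the samples. With the replicate block the counts were 7, 12, 0 and 10. On average, 12 of 12 libraries correlated better with their own number. Deviations were taken from the mean of each condition, so these 12 comparisons are not independent. Between libraries of different numbers r ran from -0.069 to 0.061. The 12 of 12 is therefore at most a weak hint, from the data and not from the design.

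Sums of CPM are not divided by length and were scaled between libraries by TMM. As a share of Cond 1, they were 99.6% for type IV in Cond 2 (109.5% by TPM) and 97.1% for the basement membrane zone in Cond 2 (103% by TPM). They were 101% for FACIT genes in Cond 3 (94.3% by TPM) and 57.7% for type VI in Cond 2 (61.8% by TPM). Among genes with at least 1 TPM in all libraries, the median log2 fold change in Cond 2 was 0.0849 with limma on log2(TPM + 1). Over all genes tested by edgeR it was 0.0002. With 1 library left out, the TPM shares ranged from 106.5% to 112% for type IV in Cond 2, from 88.0% to 91.9% for the basement membrane zone in Cond 4, from 88.5% to 98.0% for FACIT genes in Cond 3, from 85.3% to 94.4% for FACIT genes in Cond 4 and from 88.7% to 92.4% for type VI in Cond 4. Intervals of counting error were not computed, and at this depth differences in genes under 1 TPM rest on few reads.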
